A study of Mus musculus with 6 samples.

Results

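The tumor suppressor p53, its inhibitors Mdm2 and Mdm4, and 7 core p53 target genes were examined in cultured KPC pancreatic cancer cells after silencing of Brca2. The 10 genes were Trp53, Mdm2, Mdm4, Cdkn1a, Ccng1, Bax, Bbc3, Sesn2, Zmat3 and Phlda3, taken by gene symbol. All 10 were present among the 10616 genes of the count table. KPC is the usual short name of a mouse pancreatic ductal adenocarcinoma model in which Cre expressed in the pancreas switches on a mutant Trp53 allele. The labels give neither the alleles of this line nor the animal it came from. In the shBrca2 group (3 libraries) the cells carried a short hairpin RNA against Brca2, and in the shControl group (3 libraries) a nontargeting hairpin. Per the study's methods both hairpins were delivered by lentivirus followed by puromycin selection, so the control cells share the vector and the selection. Propidium iodide-negative cells were sorted, and poly(A) RNA was sequenced from its 3′ end by a variation of MARS-seq. The number of hairpins or clones per group, and whether the libraries came from separate cultures, are not given in the sources used here, so p-values measure only the spread between these libraries.

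In cells with intact p53, DNA damage stabilizes the protein, which binds DNA as a tetramer and switches on genes that halt the cell cycle, start apoptosis or limit growth. Mdm2 is both a p53 target and the ubiquitin ligase that degrades p53, and Mdm4 is a related protein that blocks the activation domain of p53. Many missense mutations of p53 impair binding to target genes. BRCA2 acts in homologous recombination, and its loss leaves breaks that can activate p53 in cells that retain it. The question addressed here was therefore how much RNA of p53 targets these KPC cells held, and whether it differed once Brca2 was silenced. No library from cells with wild-type or deleted Trp53 is part of the series, so the levels could not be compared with p53-competent cells. Counts of 3′ ends also do not tell a mutant transcript from a wild-type one.

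The p53 response element is a pair of decamers, and 3 of the members carried such a pair close to a start site. Windows of 250 bases before RefSeq start sites (GRCm38.p6, the build called mm10 in the labels) were found for 9 of the 10 genes, with none for Zmat3. They were searched for the p53 decamer consensus, which reads the same on both strands, and for pairs of decamers up to 13 bases apart. The windows shown are those with the clearest matches to the consensus, with the pair of decamers with the fewest mismatches in capitals. Binding of p53 to them was not measured here.
Cdkn1a, chr17:29090729-29090978, plus strand: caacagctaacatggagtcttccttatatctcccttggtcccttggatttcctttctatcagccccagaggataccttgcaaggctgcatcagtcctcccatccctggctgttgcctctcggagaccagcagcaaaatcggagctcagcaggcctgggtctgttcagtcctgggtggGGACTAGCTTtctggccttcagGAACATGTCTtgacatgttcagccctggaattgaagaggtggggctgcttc
Ccng1, chr11:40755287-40755536, minus strand: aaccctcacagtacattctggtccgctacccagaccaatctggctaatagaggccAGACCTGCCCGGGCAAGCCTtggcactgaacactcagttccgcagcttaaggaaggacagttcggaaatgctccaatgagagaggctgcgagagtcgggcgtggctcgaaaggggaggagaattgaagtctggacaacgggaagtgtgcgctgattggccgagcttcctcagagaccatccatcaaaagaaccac
Bax, chr7:45466899-45467148, minus strand: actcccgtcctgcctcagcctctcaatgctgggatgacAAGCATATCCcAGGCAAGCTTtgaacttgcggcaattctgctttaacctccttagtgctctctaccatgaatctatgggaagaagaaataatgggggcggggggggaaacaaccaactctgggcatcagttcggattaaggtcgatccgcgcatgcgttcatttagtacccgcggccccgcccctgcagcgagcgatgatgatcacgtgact
In the Cdkn1a window shown, both decamers matched without a mismatch, 12 bases apart, starting 73 bases before that start. The window of another Cdkn1a start, chr17:29093519-29093768, held 0 decamers without a mismatch, and its best pair had 5 mismatches. In the window shown, the second Cdkn1a decamer was also followed directly by TGACATGTTC, a pair with 1 mismatch. Ccng1 held a pair with no bases between, starting 195 bases before the start, and Bax a pair 1 base apart, starting 212 bases before it, each with 1 mismatch over the pair. The Cdkn1a window shown lay outside annotated genes, while those of Ccng1 and Bax overlapped only the 5′ edge of their own gene. Single decamers without a mismatch occurred in the windows of Cdkn1a, Ccng1, Bax, Mdm2 and Trp53, which is 5 of 9 genes, against 8.2% of all 27025 genes with a window. A pair with at most 1 mismatch occurred in 3 of 9, against 1.02% of all genes. Of 53 other p53 targets with a window, listed further below, 9 (17.0%) held such a single decamer and 2 (3.77%) such a pair. Elements further upstream or in introns were not searched, and the genes were chosen as known p53 targets, so these shares are a description.

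The libraries held between 1519340 and 2452467 counts, and the hairpin target followed the labels. Brca2 had raw counts of 10, 11 and 14 in shBrca2 and 33, 52 and 33 in shControl. The log2 fold change was -1.61 (adjusted p = 0.029 by DESeq2), and the call was lost without shBrca2 replicate 2 (0.152), shBrca2 replicate 3 (0.233) or shControl replicate 2 (0.371). Brca2 also had no adjusted p, and so no call, with TMM size factors, a minimum of 10 counts in 3 libraries or 1 surrogate variable. Of the ductal epithelial markers, 7 of 8 were in the table and summed to between 8090 and 8383 CPM (counts scaled to a common library total) in shBrca2 and between 8414 and 9197 CPM in shControl. Among them Krt7 and Sox9 were higher in shBrca2, with log2 fold changes of 1.21 and 1.20 (adjusted p = 2.07e-06 and 0.0391 by DESeq2). Krt7 was called with any 1 library left out, whereas Sox9 lost its call without shBrca2 replicate 2 or 3 or shControl replicate 1 or 2, with an adjusted p of up to 0.64 by DESeq2. The part of this marker difference in the results on p53 targets was not tested. Of 4 endothelial markers 0 were listed, nor was the pan-leukocyte gene Ptprc. The 2 of 9 fibroblast markers that were listed summed to 8.56 to 10.9 CPM in shBrca2 and 6.85 to 20.03 CPM in shControl, and the 1 of 7 immune markers to 5.94 to 9.87 and 5.25 to 8.32 CPM. The libraries did not separate by group on the first principal component (41.1% of variance), where shControl replicate 3 lay at 37.98 and the other 5 libraries between -21.95 and 13.56. On the second component (23.7%) the shBrca2 libraries lay between 4.53 and 17.7 and the shControl libraries between -31.7 and 3.16, without overlap.

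RNA of all 10 genes was present in every library, above a floor of 3 counts, and none passed the test for a difference after Brca2 silencing. In bulk RNA, fewer expressing cells and less RNA per cell cannot be told apart. DESeq2 gave 0 of 10 genes called (adjusted p under 0.1, absolute log2 fold change over 0.5 and base mean over 5), where 1.27% of the 9997 genes tested were called. At an unadjusted p under 0.05 the count was 0 of 10 as well, against 8.66% of all genes. The edgeR quasi-likelihood test gave 0 calls and 0 genes at an unadjusted p under 0.05 among the 9 members it kept, against 1.33% and 14.5% of all genes. Normalized counts of the groups overlapped for each of the 10 genes, while 20.6% of all genes showed no overlap. The median log2 fold change was -0.01 over the 10 genes and -0.00094 over all genes tested, with 4 genes above 0 and 6 below. The 9 genes other than Trp53 summed to 559, 597 and 478 CPM in shBrca2 replicates 1 to 3 and to 527, 571 and 537 CPM in shControl. The lowest and the highest sum were both shBrca2 libraries.

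**Figure D1:**
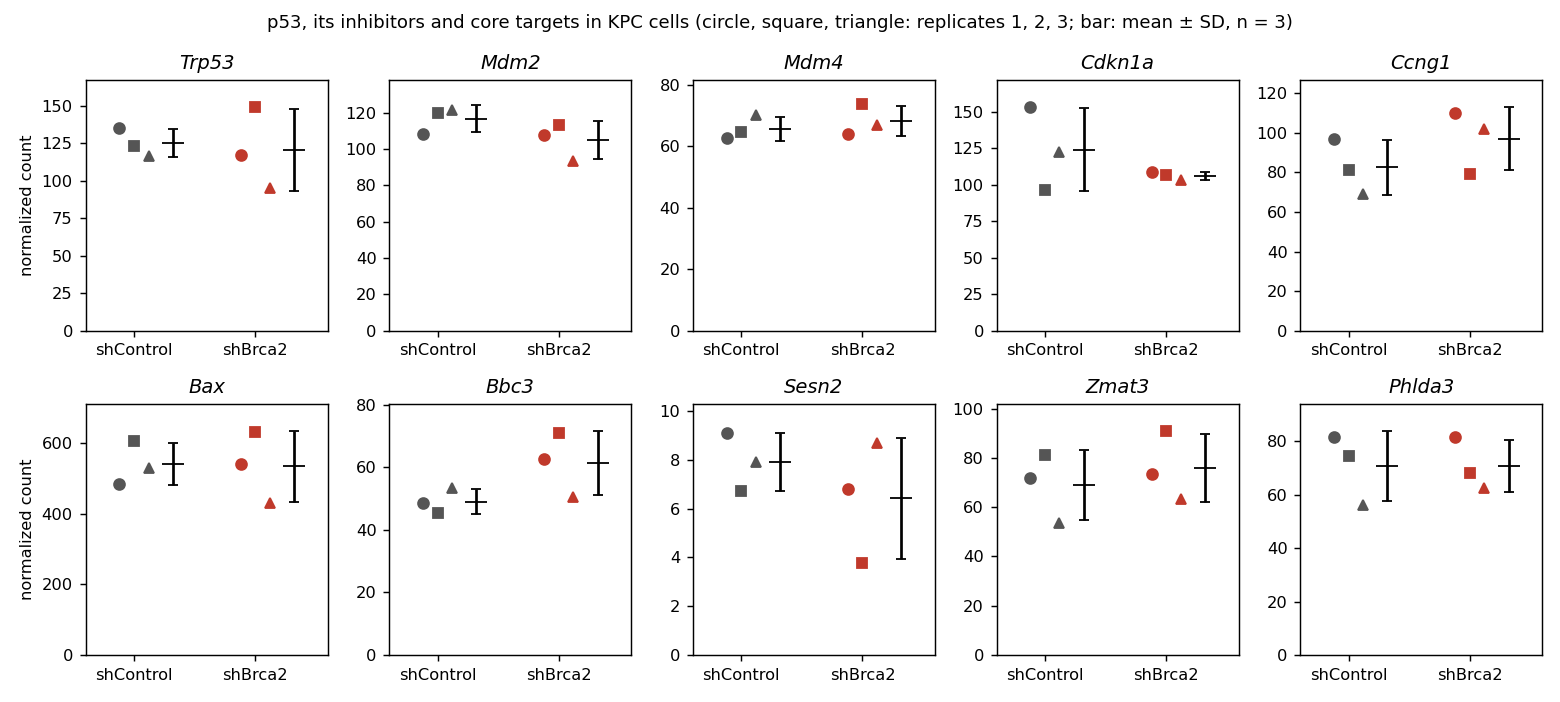
Normalized counts (vertical axes, each from 0) of p53, its inhibitors and 7 targets in 3 shControl (grey) and 3 shBrca2 (red) libraries, 1 panel per gene, with marker shapes for replicates 1 to 3 and bars for the mean ± SD. The groups overlap in every panel, and relative to its mean Cdkn1a in shBrca2 varies least, from 104 to 109.

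Trp53 itself (chromosome 11, 69580348 to 69591873, plus strand) was transcribed in both groups. Normalized counts of Trp53 were 117, 149 and 94.8 in shBrca2 and 135, 123 and 117 in shControl, where a normalized count is a raw count divided by the size factor of its library. The highest and the lowest value were both shBrca2 libraries, with the shControl libraries between them. The means were 120 ± 27.4 and 125 ± 9.5 (SD, n = 3), and the log2 fold change was -0.06 with a 95% interval of -0.51 to 0.40 (adjusted p = 0.988 by DESeq2). In shares of the library Trp53 stood between 46.2 and 72.02 CPM.

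The inhibitors of p53 did not pass the test either. Mdm2 (chromosome 10, 117688875 to 117710758, minus strand), whose second promoter is a classical p53 target, had 108, 113 and 93.1 normalized counts in shBrca2 and 108, 120 and 122 in shControl. The values of shBrca2 replicate 1 and shControl replicate 1 were nearly equal, and shBrca2 replicate 3 was lowest. For Mdm2 the log2 fold change was -0.16 with an interval of -0.60 to 0.28 (adjusted p = 0.939 by DESeq2). Mdm4 (chromosome 1, 132986105 to 133030587, minus strand) had 64.0, 73.7 and 67.0 normalized counts in shBrca2 and 62.6, 64.6 and 70.2 in shControl. Relative to the mean this was the narrowest spread of the 10 genes. Its coefficient of variation over the 6 libraries was 6.31%, less than the 12.4% that counting error alone would give. For Mdm4 the log2 fold change was 0.06 (-0.46 to 0.58), with an adjusted p of 0.988 by DESeq2. Mdm4 overlaps the noncoding gene Gm41953 on the opposite strand and a pseudogene, and whether counting respected strand is not given in the sources used here.

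Among targets that act on the cell cycle, Cdkn1a and Ccng1 differed in opposite directions, neither beyond the replicate spread. Cdkn1a (chromosome 17, 29090979 to 29100722, plus strand) encodes p21, the inhibitor of cyclin-dependent kinases through which p53 arrests cells in G1. Normalized counts of Cdkn1a were 109, 107 and 104 in shBrca2 and 154, 96.4 and 123 in shControl. The shBrca2 libraries were nearly equal and fell inside the range of the shControl libraries, in which replicate 1 was highest and replicate 2 lowest. The log2 fold change was -0.22 with an interval of -0.69 to 0.25 (adjusted p = 0.904 by DESeq2), and leaving out shControl replicate 1 gave -0.04, leaving out shControl replicate 2 -0.38. Ccng1 (chromosome 11, 40748552 to 40755309, minus strand) encodes cyclin G1, a p53 target that acts with Mdm2. Ccng1 had 110, 79.4 and 102 normalized counts in shBrca2 and 97.0, 81.3 and 69.2 in shControl. Its log2 fold change of 0.23 (-0.27 to 0.73) had an adjusted p of 0.906 by DESeq2, and it was 0.12 without shControl replicate 3.

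The apoptosis genes were the most and among the least different of the 10. Bbc3 (chromosome 7, 16308398 to 16318334, plus strand) encodes PUMA, a BH3-only protein that frees BAX and BAK. Normalized counts of Bbc3 were 62.7, 70.9 and 50.5 in shBrca2 and 48.5, 45.3 and 53.4 in shControl. The upper shBrca2 libraries exceeded all shControl libraries, but shBrca2 replicate 3 lay below shControl replicate 3. The log2 fold change of 0.32 was the largest positive one of the 10 genes, with an interval of -0.26 to 0.90 and an adjusted p of 0.876 by DESeq2. Bax (chromosome 7, 45461695 to 45466903, minus strand), the pore-forming effector of mitochondrial apoptosis, had 541, 631 and 430 normalized counts in shBrca2 and 485, 605 and 530 in shControl. The shBrca2 group again held both the highest and the lowest library. Being the most deeply counted of the 10 genes, Bax also had the tightest interval, -0.37 to 0.33 around a log2 fold change of -0.02 (adjusted p = 0.989 by DESeq2). It was the only gene of the 10 whose interval lay within 0.5 of 0 on the log2 scale. Bax varied by 13.9% over the 6 libraries, against 4.37% from counting error alone.

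The remaining targets Zmat3, Phlda3 and Sesn2 did not pass the test, and Sesn2 had the fewest counts of the 10 genes. Zmat3 (chromosome 3, 32334792 to 32365665), an RNA-binding zinc finger protein with tumor suppressor activity downstream of p53, had 73.6, 90.8 and 63.5 normalized counts in shBrca2 and 71.7, 81.3 and 53.4 in shControl. The groups interleaved, and the log2 fold change was 0.14 (-0.41 to 0.69, adjusted p = 0.965 by DESeq2). Zmat3 overlaps the noncoding gene 4930429B21Rik, so its count is uncertain. Phlda3 (chromosome 1, 135766085 to 135769134, plus strand), which restrains AKT by competing for membrane lipids, had 81.7, 68.1 and 62.6 normalized counts in shBrca2 and 81.8, 74.6 and 56.4 in shControl. The group means were 70.8 ± 9.83 and 71.0 ± 13.1 (SD, n = 3), and the log2 fold change was -0.01 (-0.55 to 0.52, adjusted p = 0.989 by DESeq2). Sesn2 (chromosome 4, 132492804 to 132510456, minus strand), a leucine sensor that holds back mTORC1, had raw counts of only 5, 4 and 10 in shBrca2 and 9, 8 and 8 in shControl. Its log2 fold change of -0.29 had an interval of -1.75 to 1.16 (adjusted p = 0.976 by DESeq2), so folds from 0.298 to 2.24 lay inside the interval and a change of that size was not detectable at this depth. The 9 other genes had intervals within 1 of 0 on the log2 scale.

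**Figure D2:**
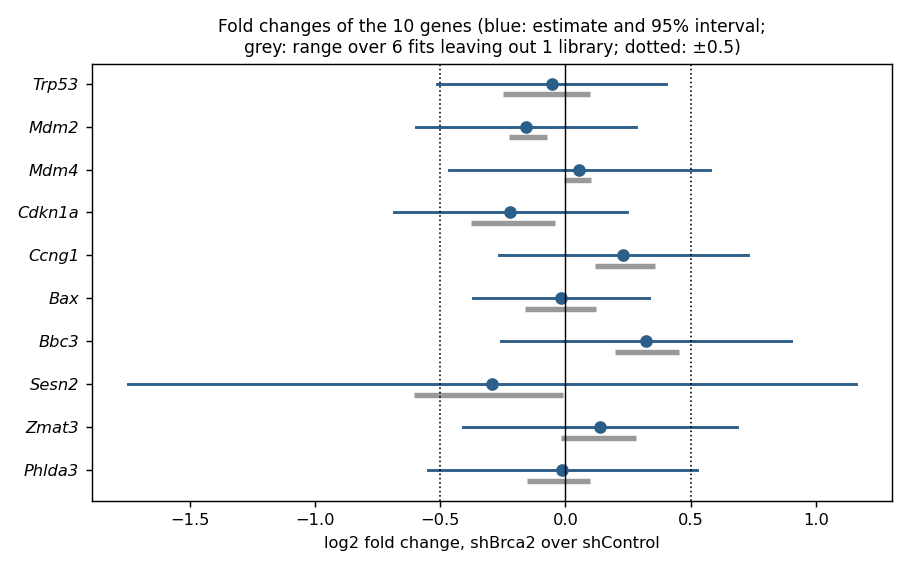
Log2 fold change of shBrca2 over shControl (horizontal axis) for the 10 genes, with the 95% interval in blue, the range over 6 fits that each left out 1 library in grey, and dotted lines at the call minimum of 0.5. Every interval includes 0, the Bax interval is narrowest and that of Sesn2 widest.

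The spread over the libraries of both groups differed from gene to gene. The coefficient of variation over all 6 libraries ran from 6.31% for Mdm4 to 26.8% for Sesn2. Mdm2 varied by 9.37%, close to the 9.62% of counting error alone, whereas Cdkn1a varied by 17.9% against 9.42% and Trp53 by 15.1% against 9.13%. Counting error was taken as Poisson, which assumes that each count is a separate molecule. With 1 library left out at a time, 5 of the 10 genes kept the sign of their fold change in all 6 fits, namely Mdm2, Cdkn1a, Ccng1, Bbc3 and Sesn2, and 0 were called in any of these fits. Sesn2 had no adjusted p in 4 of them because of its low mean.

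Genes with the most similar profile over the 6 libraries were sought for Trp53, Mdm2 and Cdkn1a among 5680 other genes with a base mean of at least 50, by the root mean square difference of centred log2 normalized counts. Closest to Trp53 were Prelid1 (0.03), Ndufs7 (0.054) and Scnm1 (0.057), against a median of 0.28 over all genes ranked. Prelid1, a mitochondrial lipid transfer protein, had 1915, 2438 and 1629 normalized counts in shBrca2 and 2260, 2035 and 1874 in shControl, so shBrca2 replicate 2 was highest and replicate 3 lowest, as for Trp53. Closest to Mdm2 were Zfp623 (0.024), Exosc1 (0.033) and Tmem63a (0.036), against a median of 0.23. For Cdkn1a they were Svbp (0.032), Gins2 (0.064) and Sirt7 (0.07), against a median of 0.3. Svbp had 168 normalized counts in shControl replicate 1 and between 105 and 128.5 in the other 5 libraries, the pattern seen for Cdkn1a. With so many genes ranked over 6 points some closeness is given by the search itself, and the values are a description.

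To ask whether the wider p53 program behaved like the 10 genes, 78 other p53 targets were listed, of which 66 were in the table and 63 had an adjusted p. In this list 3 genes, among them the secreted factors Lif and Thbs1, were lower in shBrca2, and the other 60 did not pass. That is 0 called higher and 3 called lower of 63 by DESeq2, where 0.77% of all genes were called higher and 0.5% lower, and edgeR called 3 of 60. The median log2 fold change of the list was -0.06, with 26 genes above 0 and 37 below. The list was drawn up with earlier results of these libraries known, so its counts are a description. Fas, Trp53inp1, Eda2r and 9 further targets were not analysed here.

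Lif, which encodes leukemia inhibitory factor, a cytokine of the interleukin-6 family, had 43.6, 35.0 and 37.4 normalized counts in shBrca2 and 65.7, 79.7 and 103 in shControl. The groups did not overlap, with shControl replicate 3 highest. Lif fell by 1.11 on the log2 scale (SE 0.30, adjusted p = 0.0289 by DESeq2, 0.058 by edgeR). It stayed called in 2 of the 6 leave-one-out fits, with adjusted p-values by DESeq2 of 0.163 and 0.283 when shBrca2 replicate 2 or 3 was left out, and 0.215 and 0.309 when shControl replicate 2 or 3 was. With 1 surrogate variable in the model the adjusted p by DESeq2 was 0.111.

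Thbs1, which encodes the matrix glycoprotein thrombospondin-1, had normalized counts of 1.36, 4.73 and 4.35 in shBrca2 and 22.2, 12.6 and 19.8 in shControl. Its log2 fold change was -2.31 (SE 0.70, adjusted p = 0.0678 by DESeq2, 0.0608 by edgeR) at a base mean of 10.8. Raw counts were 1, 5 and 5 against 22, 15 and 20. Leaving out any library ended the call, with adjusted p-values of 0.145 to 0.31 by DESeq2 in 4 of these 6 fits and none given in the other 2, without shBrca2 replicate 2 or shControl replicate 3. TMM or total-count size factors, a minimum of 10 counts in 3 libraries and 1 surrogate variable also left Thbs1 without an adjusted p.

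By role, the 11 tested targets in arrest and proliferation had 1 gene above 0 and 10 below, with 0 called. Of all 9997 genes tested, 4981 lay above 0 and 5016 below, and 1.27% were called. The split of signs by role was not tested. The lowest p among them belonged to Gtse1, a microtubule-associated protein that restrains p53 in G2, with 114, 104 and 118 normalized counts in shBrca2 and 148, 144 and 202 in shControl and a log2 fold change of -0.55 (adjusted p = 0.344 by DESeq2). The 13 apoptosis targets had 5 above 0 and 8 below. Among these, Ikbip had a log2 fold change of 0.55 without overlap between the groups (adjusted p = 0.447 by DESeq2), and the most highly counted was Siva1 at -0.27 (adjusted p = 0.748). The 8 DNA repair targets had a median of -0.06 and the 10 metabolism and redox targets one of 0.28. In either role 0 were called, against 1.27% of all genes. Gpx1, a glutathione peroxidase and the list's most highly counted gene, had a log2 fold change of 0.16 (-0.14 to 0.47, adjusted p = 0.884 by DESeq2). In the last group Cpe, a prohormone carboxypeptidase, had a log2 fold change of 0.51 (adjusted p = 0.431 by DESeq2), which reached 0.76 (adjusted p = 0.0613) without shControl replicate 1. Over the list the groups did not overlap for 3 genes higher and 10 lower of 63, where 10.2% and 10.4% of all genes did so.

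**Figure D3:**
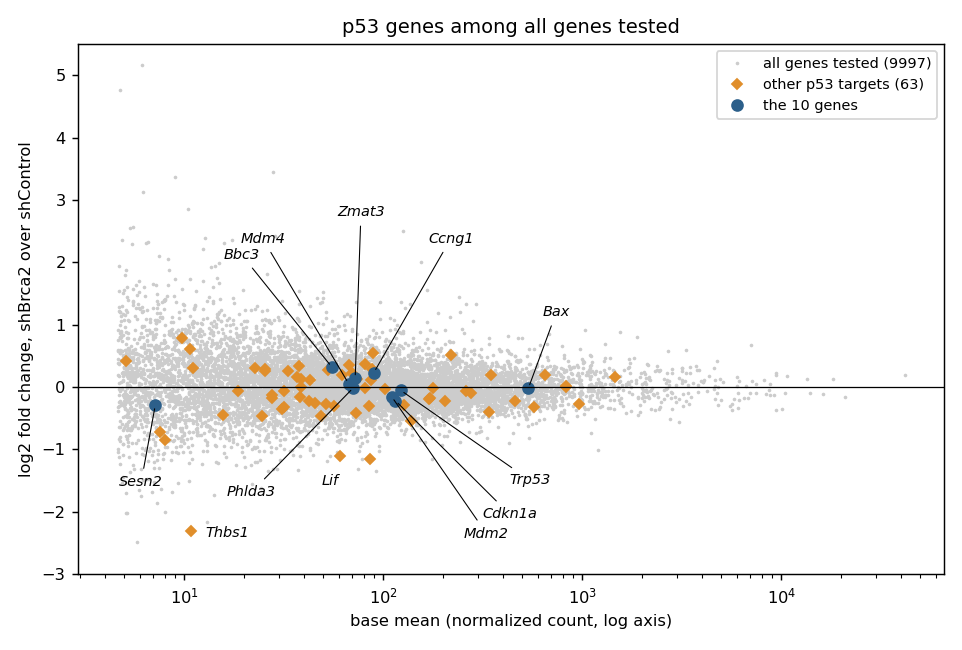
Log2 fold change of shBrca2 over shControl (vertical axis) against base mean (horizontal, log axis) for 9997 genes in grey, 63 other p53 targets in orange and the 10 genes in blue. The 10 genes lie between -0.29 and 0.32, while Lif and Thbs1 lie below -1.

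Genes that act on p53 or Mdm2 were then examined, and 0 of 29 were called by DESeq2 or edgeR, against 1.27% and 1.33% of all genes. At an unadjusted p under 0.05 DESeq2 gave 4 of 29 and edgeR 6 of the 25 it kept, against 8.66% and 14.5% of all genes. These 29 had a median log2 fold change of 0.03, with 17 above 0 and 12 below. Rpl5, a ribosomal protein that binds and inhibits Mdm2 when ribosome assembly fails, had the smallest p by DESeq2, with 66.7, 53.9 and 78.3 normalized counts in shBrca2 and 58.6, 34.4 and 19.8 in shControl and a log2 fold change of 0.82 (adjusted p = 0.443 by DESeq2). Without shControl replicate 1 it was called, at 1.28 and an adjusted p of 0.0747. Rpl11 and Rpl23, ribosomal proteins that also bind Mdm2, had log2 fold changes of 0.06 and 0.08, and counts of ribosomal protein genes are uncertain because of their processed pseudogenes. The acetyltransferases Kat5, which modifies the DNA-binding domain of p53, and Ep300, its coactivator, had log2 fold changes of -0.52 and 0.58 without overlap of the groups (adjusted p = 0.525 and 0.555 by DESeq2). Over the 29 genes the groups did not overlap for 4 higher and 3 lower, where 10.2% and 10.4% of all genes did so. The kinases Atm, Atr, Chek1 and Chek2 relay DNA breaks to p53. Of the 7 damage kinases listed, DESeq2 called 0 and had 0 at an unadjusted p under 0.05, against 1.27% and 8.66% of all genes. With edgeR both counts were 0 among the 5 it kept, against 1.33% and 14.5% of all genes.

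The partners of Bax and Bbc3 in the BCL2 family all had log2 fold changes below 0, none past the test. The 10 genes in the table had a median of -0.29, and 0 were called by either tool, with 1 at an unadjusted p under 0.05 by each, where DESeq2 called 1.27% of all genes and had 8.66% under 0.05, and edgeR 1.33% and 14.5%. TMM and total-count size factors left all 10 below 0, while 1 gene lay above 0 with 1 surrogate variable. The gene under 0.05 was Bok, a BAX-like effector, with 546, 513 and 280 normalized counts in shBrca2 and 749, 613 and 665 in shControl. Every shBrca2 library lay below every shControl library, which held for 1 of these 10 genes and for 10.4% of all genes. The log2 fold change of Bok was -0.60 (-1.02 to -0.18, adjusted p = 0.235 by DESeq2, 0.24 by edgeR). Without shBrca2 replicate 3, the lowest library, it was -0.35. Bak1, the other effector in mitochondria, stood at -0.43 (-0.89 to 0.04, adjusted p = 0.65 by DESeq2), and Bcl2l1, which encodes the survival protein BCL-XL, at -0.24 (-0.55 to 0.06, adjusted p = 0.735). Bax had a log2 fold change of -0.02, and the difference between genes was not tested.

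None of the relatives of Cdkn1a passed the test. The groups did not overlap for 1 of these 5, where 20.6% of all genes showed no overlap. Cdkn1b, which encodes the cyclin-dependent kinase inhibitor p27, had 28.6, 28.4 and 28.7 normalized counts in shBrca2 and 8.08, 13.4 and 14.8 in shControl. Every shBrca2 library lay above every shControl library, and the log2 fold change was 1.23 (0.32 to 2.14, adjusted p = 0.282 by DESeq2, 0.108 by edgeR). Cdkn2a, whose alternative reading frames encode p16 and the Mdm2 inhibitor ARF, was expressed in both groups at 657 ± 84.4 normalized counts in shBrca2 and 643 ± 107 in the controls (SD, n = 3). The log2 fold change of Cdkn2a was 0.03 (-0.31 to 0.37), and a count per gene does not tell its transcripts apart. Cdkn2b, which encodes p15, stood at 0.04 (-0.30 to 0.38). By DESeq2 and by edgeR 0 of these 5 inhibitors were called, against 1.27% and 1.33% of all genes. At an unadjusted p under 0.05 each gave 1 of 5, against 8.66% and 14.5%.

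Induction of p21 lowers genes of S phase and mitosis, and 16 such genes were followed as a readout. DESeq2 and edgeR called 0 of 16, with 2 and 4 at an unadjusted p under 0.05, against 1.27% and 1.33% of all genes called and 8.66% and 14.5% under 0.05. The median log2 fold change was -0.16, with 3 genes above 0 and 13 below. Kif23, a kinesin of the central spindle, had 291, 330 and 261 normalized counts in shBrca2 and 421, 388 and 379 in shControl without overlap, a log2 fold change of -0.43 (-0.76 to -0.10, adjusted p = 0.322 by DESeq2). Over the 16 genes the groups did not overlap for 0 higher and 3 lower, where 10.2% and 10.4% of all genes did so. The spindle checkpoint kinase Bub1 stood at 1.07 (SE 0.45, adjusted p = 0.402 by DESeq2) and Aurkb, the kinase of the chromosomal passenger complex, at -0.37 (-0.75 to 0.01, adjusted p = 0.605). The 2 most highly counted genes, Top2a and Birc5, stood at -0.16 and -0.20. Cdkn1a itself had a log2 fold change of -0.22, as given above.

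**Figure D4:**
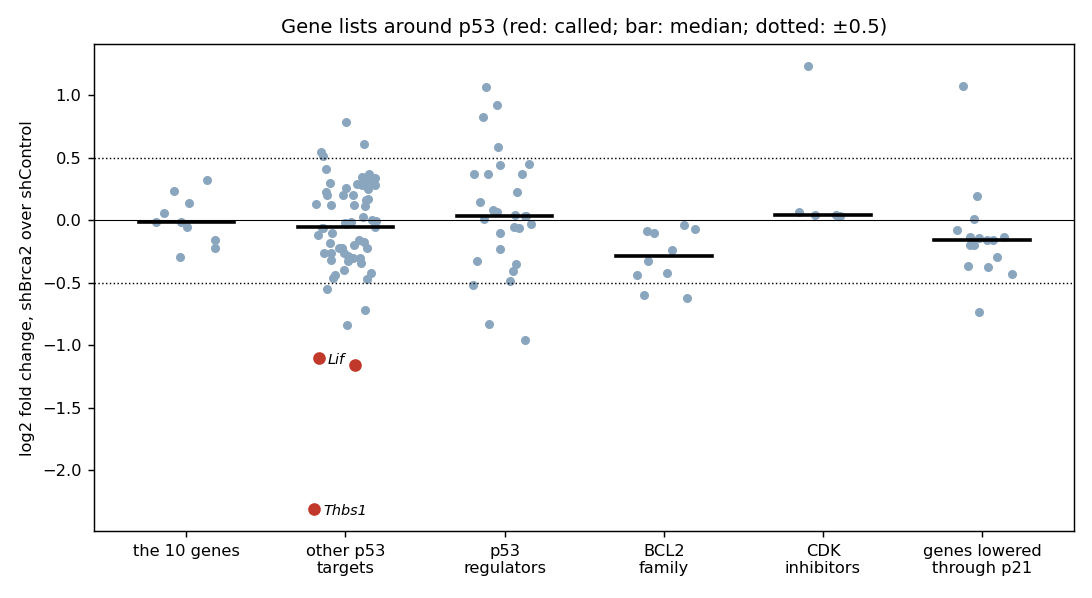
Log2 fold change of shBrca2 over shControl (vertical axis) for the tested genes of 6 lists, with the list median as a bar and dotted lines at 0.5 on either side of 0. Medians run from -0.29 in the BCL2 family to 0.04 in the CDK inhibitors, and the 3 called genes, in red, all belong to the other p53 targets, Lif and Thbs1 being labelled.

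**Figure D5:**
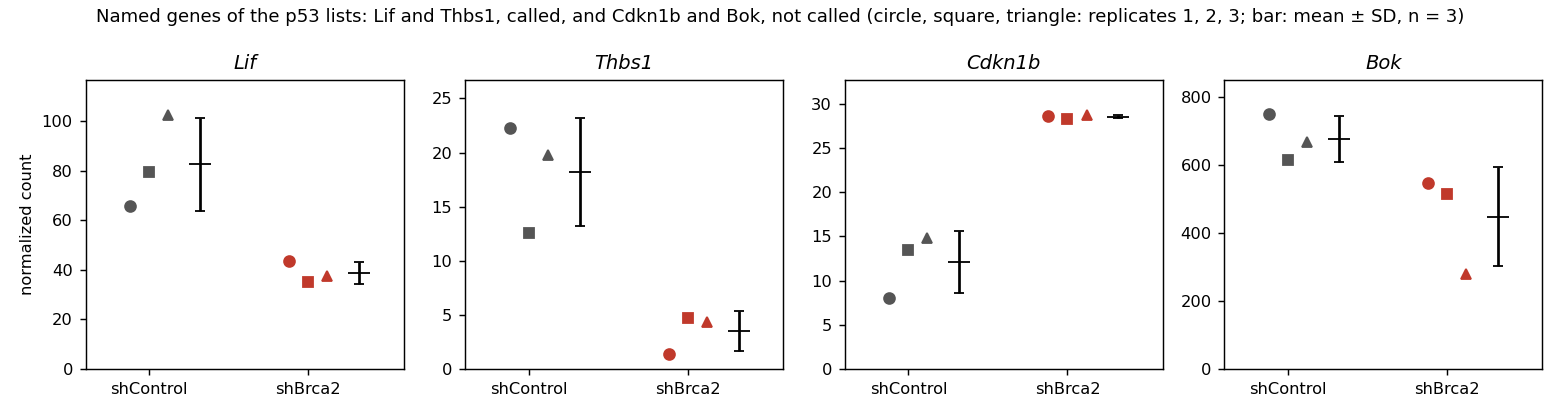
Normalized counts (vertical axes, each from 0) of 4 named genes in 3 shControl (grey) and 3 shBrca2 (red) libraries, with marker shapes for replicates 1 to 3 and bars for the mean ± SD. The groups do not overlap in any panel, as for 20.6% of all genes tested, and of the 4 only Lif and Thbs1 were called.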

How the data were processed

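Per the labels, KPC-shBrca2 and KPC-shControl cells were sequenced at RNA 3′ ends (MARS-seq variation). The authors deposited raw counts in 1 table of gene symbols by libraries, neither normalized nor pooled. The submitters' processing notes name bcl2fastq, cutadapt, STAR 2.4.2a, HTSeq, DESeq2 and the build mm10, while annotation, use of strand and molecular identifiers are not given in the sources used here. Listed genes reach at least 6 counts in some library. Libraries were grouped by source name and matched to columns by title.

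Testing used DESeq2 1.42.0 in R 4.3.3 with a likelihood ratio test of group, median-of-ratios size factors and thresholds from the study's methods (adjusted p under 0.1, absolute log2 fold change over 0.5, base mean over 5), adjusted by Benjamini-Hochberg over all genes. Intervals are 95% Wald intervals. Alternatives were edgeR 4.0.16, the Wald test, other size factors and filters, other thresholds, 1 surrogate variable (sva 3.50.0) and each library left out. Members and lists were chosen with earlier results of these data known. Outside the 10 genes, the text names Brca2 and, per list, called genes, the 3 smallest p-values among the rest and the 2 highest means. For Trp53, Mdm2 and Cdkn1a it also names the 3 genes nearest in profile (pseudocount 1). Krt7, Sox9, Ptprc, Atm, Atr, Chek1, Chek2 and Cdc20 are named outside this rule, after their values were seen, and 1 gene within it is not reported here. Promoter sequences and positions are RefSeq's on GRCm38.p6.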

Additional observations from a re-analysis of the deposited data

How the results depend on the processing

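Of the 10 genes 0 were called under any alternative: edgeR, the Wald test, TMM or total-count size factors, low-count filters, other thresholds, 1 surrogate variable and each library left out. Sesn2 was not tested by edgeR or with the minimum of 10 counts, and had no adjusted p with the Wald test, TMM or total-count size factors, 1 surrogate variable and 4 of the 6 left-out libraries, so these cover 9 genes. Of 140 comparisons of a member with an alternative 128 kept direction and side of the threshold. The other 12 changed sign, reaching at most 0.12 on the other side of 0. The Wald test, the other thresholds and skipping the filter on mean count kept the main fold changes, so these comparisons could not change sign. With 1 library left out, 11 comparisons changed sign and 45 did not. With 1 surrogate variable Bax stood at a log2 fold change of 0.0505, Rpl11 at -0.0518 and Cdkn2b at -0.0198, and 1 of the other p53 targets was called in place of 3. The cause was not tested.

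With single libraries left out, the log2 fold change ranged from -0.25 to 0.10 for Trp53, -0.0051 to 0.10 for Mdm4, -0.16 to 0.12 for Bax, -0.0161 to 0.28 for Zmat3, -0.15 to 0.10 for Phlda3, -0.00053 to 0.20 for Rpl11, -0.0709 to 0.17 for Cdkn2b, -0.0937 to 0.14 for Cdkn2a and -1.70 to -1.46 for Brca2. Called genes ranged from 0 to 3 among other p53 targets, 0 to 1 among p53 regulators (Rpl5, without shControl replicate 1), 0 to 1 among genes lowered through p21 (Cdc20, without shBrca2 replicate 2) and 47 to 140 among all genes. Brca2 lost its call without shBrca2 replicate 2, shBrca2 replicate 3 or shControl replicate 2, and had no adjusted p with TMM size factors, the minimum of 10 counts or 1 surrogate variable. No paired analysis was possible because replicate numbers that pair shBrca2 with shControl libraries are not in the labels. With total-count scaling the 3 nearest genes of Trp53, Mdm2 and Cdkn1a were the same 3. Low counts limit Sesn2, Thbs1, Brca2 and Cdkn1b, each without an adjusted p under some alternatives.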
